A study of Zea mays with 12 samples.

Results

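Knockdown of the prolamin-box binding factor was examined in maize endosperm that also carried the opaque2 mutation, by setting 3 PbfRNAi;o2 libraries against 3 o2 libraries. These 6 of the 12 libraries of the series were chosen by genotype alone. PbfRNAi;o2 endosperm combined RNA interference of Pbf with the o2 mutation, and o2 endosperm carried the mutation without the interference construct, so the o2 lesion was shared by both groups. Endosperm was taken 16 days after pollination from field-grown plants, rRNA was depleted and the RNA was sequenced on an Illumina HiSeq instrument. The PbfRNAi;o2 libraries are also called the knockdown libraries below, except where PbfRNAi libraries are discussed beside them. The other 6 libraries, PbfRNAi and WT with 3 each, served only to ask whether the effect differed where Opaque2 was intact. The interference construct and its promoter, the o2 allele, the inbred background and the number of plants or kernels behind a library do not appear in the labels. The libraries are labelled as biological replicates without saying whether each came from separate plants, so the p-values measure the spread between these samples.

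The prolamin-box binding factor (PBF, gene pbf1) is a zinc-finger protein of the Dof family that binds the prolamin box in the promoters of seed storage protein genes. Opaque2 (O2) is an endosperm basic leucine zipper protein that activates many of the same genes and can act together with PBF. Their best known targets encode the zeins, the storage proteins that fill protein bodies in the endoplasmic reticulum of starchy endosperm cells. Zeins form alpha, beta, gamma and delta classes, and the alpha class comes from tandem arrays of near-identical gene copies named z1A, z1B, z1C and z1D, so that a level assigned to a single alpha-zein model is uncertain.

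Expression was given as FPKM, sequenced fragments scaled by the length of the gene model and by the library total, and depth is unknown. Of 39448 gene models, 16355 had an FPKM of 1 or more in at least 3 of the 6 libraries and were tested with limma on log2(FPKM + 1), a scale that understates the change of weakly expressed genes. Replicates 2 and 3 correlated at 0.995 within each genotype, against 0.954 between replicate 1 and the others in PbfRNAi;o2 and 0.969 in o2. The 15 heat shock genes tested stood higher in replicate 1 than in replicates 2 and 3, by a median of 2.98 on the log2 scale in PbfRNAi;o2 and 1.33 in o2. Zeins stood lower in replicate 1 of PbfRNAi;o2, by a median of 1.65, and higher in replicate 1 of o2, by 1.04, so replicate 1 widened the zein difference between the genotypes. Zeins, markers of starchy endosperm, took 11.9 to 15.6% of the summed FPKM in PbfRNAi;o2 and 15.9 to 18.9% in o2. The pericarp regulator p1 was at 0 and the leaf gene rbcs1 stayed below 1 FPKM in all 6 libraries. Markers of other kernel parts, such as ole1, betl1 and vpp1, were read in all 6, so the tissue was not starchy endosperm alone.

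At a limma adjusted p under 0.05, 2130 genes were higher and 1031 lower in the PbfRNAi;o2 libraries than in the o2 libraries. This is 19.3% of the genes tested (13.0% higher and 6.3% lower). Effects of the construct, its place in the genome or the line background cannot be told apart here from those of less Pbf. Raised and lowered describe this contrast alone. Changes were mostly moderate, with a median log2 fold change of 0.84 among genes that were higher and −0.79 among genes that were lower. At least a 2-fold difference was reached by 830 of the higher and 349 of the lower genes, and at least a 4-fold difference by 179 and 73. The libraries of the 2 genotypes did not overlap in any of the 2130 higher and 1031 lower genes. A lack of overlap stated below for a called gene therefore adds nothing to its call. Because each value is a share of its library, scaling matters. Median-of-ratios scaling removed a shift of 0.066 on the log2 scale between the genotypes. The median log2 fold change over all genes tested went from 0.053 to −0.0022. After scaling 2030 genes were higher and 1616 lower (22.3% of genes tested, 12.4% higher and 9.88% lower). Single libraries set the counts to a large extent: 1004 and 511 genes were called without knockdown replicate 2, 867 and 481 without knockdown replicate 3, 1231 and 322 without o2 replicate 2, and 1260 and 337 without o2 replicate 3, while 1875 were lower without knockdown replicate 1. Without replicate 1 of both genotypes, 3900 were higher and 4515 lower. That setting rests on replicates 2 and 3, which correlated at 0.995 within each genotype and whose independence is not given. Its p-values and counts, here and below, measure only the small spread between those close libraries. At an unadjusted p under 0.05, 3542 of the 16355 genes tested were higher and 1987 lower with all 6 libraries. List counts below at that limit, or without replicate 1 of both genotypes, are to be read against these totals.

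**Figure D1:**
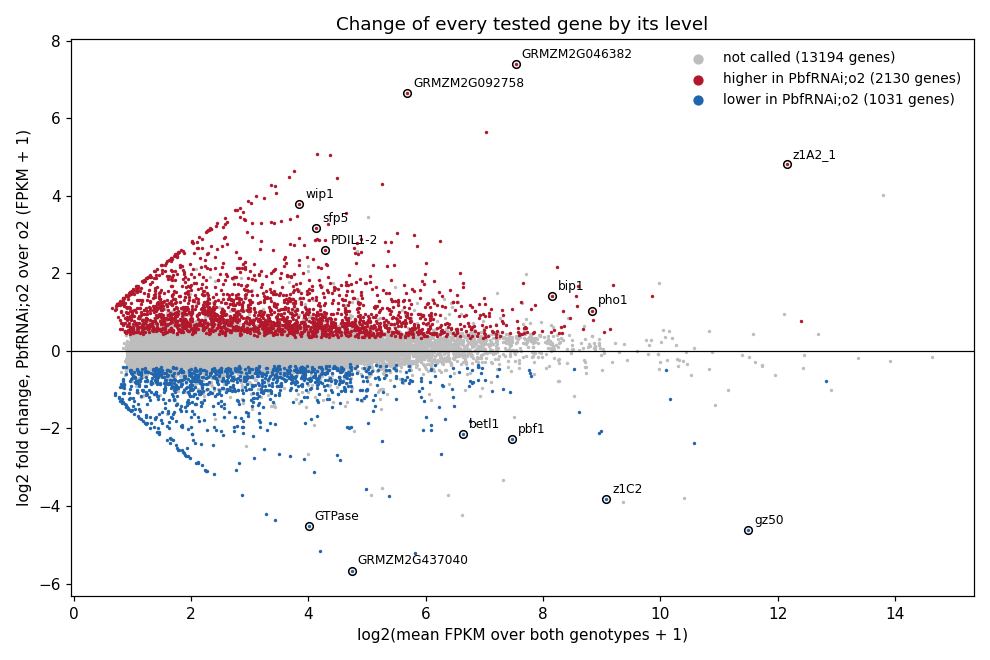
Log2 fold change of PbfRNAi;o2 over o2 (vertical axis, log2(FPKM + 1) scale) against the mean level of each of 16355 genes (horizontal axis, log2 mean FPKM), with each point 1 gene, coloured by whether it was called higher (2130), called lower (1031) or not called. Among the labelled genes, gz50 and pbf1 lie below 0 and z1A2_1 and sfp5 above it.

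The targeted gene was reduced but not silenced. The pbf1 model GRMZM2G146283 had 64.8, 58.8 and 54.9 FPKM in the 3 PbfRNAi;o2 libraries, against 242, 307 and 331 FPKM in the 3 o2 libraries. All 3 knockdown libraries lay far below the o2 libraries, with means of 59.5 ± 4.97 and 293 ± 45.9 FPKM (SD, n = 3 each). The log2 fold change was −2.27 ± 0.14 (SE, limma adjusted p = 5.7e-05). With Opaque2 intact, pbf1 had 56.7, 44.0 and 39.1 FPKM in PbfRNAi libraries, against 110, 102 and 97.6 FPKM in WT libraries. The knockdown libraries thus ended at similar levels in both backgrounds, while the o2 libraries stood above the WT libraries, and the log2 fold change was larger in the o2 background by 1.13 ± 0.21 (interaction adjusted p = 0.0056). In bulk tissue, fewer cells of a type and less RNA per cell cannot be told apart.

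A second model that the annotation also names pbf1, GRMZM2G146267, changed little. It had 15.2, 15.1 and 13.2 FPKM in PbfRNAi;o2, against 16.7, 20.05 and 18.5 FPKM in o2, a log2 fold change of −0.32 ± 0.12 (adjusted p = 0.10). Median-of-ratios scaling took it past the threshold at −0.38 (adjusted p = 0.026), and so did leaving out replicate 1 of both genotypes at −0.42 (adjusted p = 0.0012). The o2 transcript itself had 0.80, 0.31 and 0.27 FPKM in PbfRNAi;o2 and 0.68, 0.16 and 0.56 FPKM in o2, below the level required for testing in both groups that carry the mutation. It had 97.3, 128 and 133 FPKM in PbfRNAi and 230, 195 and 189 FPKM in WT.

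**Figure D2:**
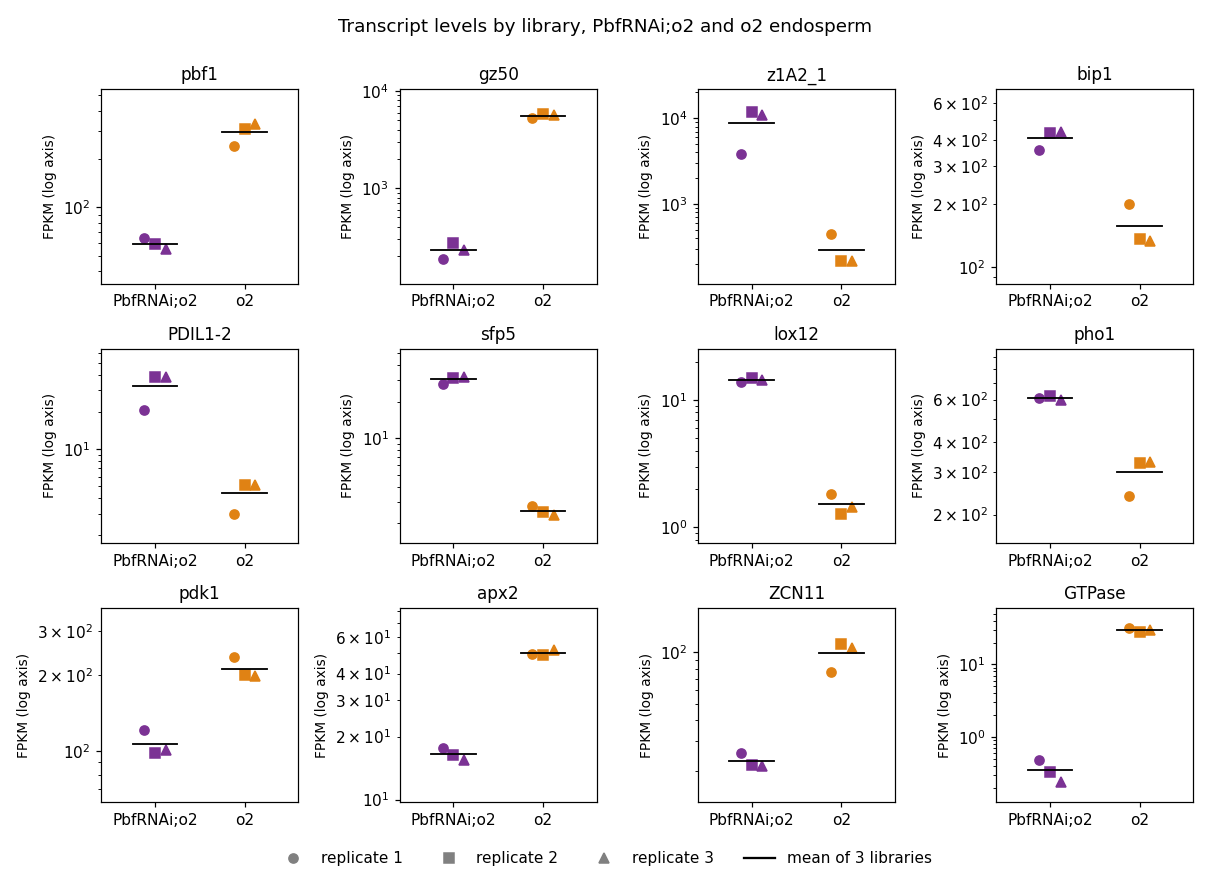
FPKM (log axis) of 12 genes in each PbfRNAi;o2 library (left in every panel) and each o2 library (right), with markers by replicate number and a line at the mean of 3. In all 12 panels the 2 genotypes do not overlap, as for all 2130 higher and 1031 lower genes called.

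Of 26 zein models, 21 could be tested, and 5 were lower and 1 higher in the knockdown libraries. Over all genes tested 6.3% were lower and 13.0% higher. The median log2 fold change of zeins was −1.01, against 0.05 over all genes tested. The lowered genes were the 50-kDa gamma-zein and 4 alpha-zeins of the z1C group, and the raised one was the alpha-zein z1A2_1. The 5 untested zeins, z1C1_6, z1C1_1, z1C1_11, z1B_8 and dzs18, were near or below 1 FPKM. The number of lowered zeins was 8 without knockdown replicate 1, 2 without knockdown replicate 3, 3 without o2 replicate 2 and 1 without o2 replicate 3. Without replicate 1 of both genotypes 5 zeins were higher and 8 lower.

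The gamma-zein gene gz50 (GRMZM2G138689) had the largest called fall among zeins. It had 185, 273 and 231 FPKM in the knockdown libraries, against 5258, 5820 and 5635 FPKM in o2. The groups were far apart, with means of 230 ± 44.4 and 5571 ± 286 FPKM (SD, n = 3 each), a 24.2-fold higher level in o2. Its log2 fold change was −4.61 ± 0.17 (limma adjusted p = 7.7e-06). The 27-kDa gamma-zein gene gz27, a major component of the protein body shell, had 13241, 13686 and 12457 FPKM in PbfRNAi;o2, against 0, 22675 and 23594 FPKM in o2. The value of 0 in o2 replicate 1 may be a failed estimate, since both other o2 libraries were above all knockdown libraries, and no fold change is given over all 6. Without o2 replicate 1 the log2 fold change of gz27 was −0.82 (adjusted p = 0.013).

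The remaining gamma and beta zeins did not pass the test. The 16-kDa gamma-zein gene gz16 had 28371, 23071 and 21222 FPKM in PbfRNAi;o2 and 32821, 23760 and 24125 FPKM in o2 (log2 fold change −0.15 ± 0.22, adjusted p = 0.70). The 15-kDa beta-zein gene bz15 had 6875, 8106 and 7068 FPKM in the knockdown libraries, against 9700, 4087 and 3991 FPKM in o2 (0.44 ± 0.34, adjusted p = 0.42). For bz15 o2 replicate 1 lay above all knockdown libraries and the other 2 o2 libraries below them, and without it the log2 fold change was 0.86 (adjusted p = 0.010).

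Among the alpha-zeins, z1A2_1 (GRMZM2G008341) rose against the direction of the group. It had 3788, 11813 and 10872 FPKM in PbfRNAi;o2, against 450, 217 and 220 FPKM in o2. Every knockdown library lay above every o2 library, with means 29.9-fold apart and a log2 fold change of 4.82 ± 0.49 (limma adjusted p = 0.00077). The same model had 23510, 22673 and 22321 FPKM in PbfRNAi libraries, against 806, 1313 and 996 FPKM in WT libraries, a log2 fold change of 4.49. Its neighbour in name, z1A2_2, had 1847, 7290 and 6682 FPKM in PbfRNAi;o2 and 16920, 6542 and 6663 FPKM in o2. The genotypes overlapped and the test was not passed (−1.01 ± 0.61, adjusted p = 0.30), and the log2 fold change of z1A2_2 was 0.08 without replicate 1 of both genotypes. Because these copies are near-identical, the division of reads between them is uncertain.

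The z1C group carried the lowered alpha-zeins. Summed over its 11 models, 8 of them tested, it had 40.9, 402 and 358 FPKM in the knockdown libraries, against 4681, 1920 and 1814 FPKM in o2. All 3 knockdown sums were below all o2 sums, and their ratio was 0.0951, or 0.203 without replicate 1 of both genotypes. The other tested z1A members gave sums of 6331, 22281 and 20905 FPKM in PbfRNAi;o2 and 40078, 19405 and 19471 FPKM in o2. These overlapped between the genotypes, with a ratio of 0.627, or 1.11 without replicate 1 of both.

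Within the z1C group, z1C2 had 22.2, 125 and 112 FPKM in PbfRNAi;o2, against 1306, 851 and 826 FPKM in o2. It was lower in all 3 knockdown libraries, by −3.81 ± 0.64 on the log2 scale (adjusted p = 0.0078), but passed neither without o2 replicate 3 (adjusted p = 0.051) nor in a fit of all 12 libraries (adjusted p = 0.48), where the WT libraries read 27678, 0 and 0 FPKM. z1C1_4 had 0.81, 10.8 and 4.33 FPKM in the knockdown libraries, against 138, 53.5 and 34.9 FPKM in o2 (−3.74 ± 0.79, adjusted p = 0.022). z1C1_2 had 0.95, 7.37 and 3.49 FPKM in PbfRNAi;o2, against 96.2, 22.8 and 51.6 FPKM in o2 (−3.57 ± 0.66, adjusted p = 0.012). z1C1_5 had 1.51, 10.1 and 3.51 FPKM in the knockdown libraries, against 73.8, 18.8 and 21.1 FPKM in o2 (−2.67 ± 0.69, adjusted p = 0.040). In these 3 models o2 replicate 1 was the highest library and knockdown replicate 1 the lowest.

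The calls of those z1C models rested on few libraries. z1C1_4 missed the threshold without knockdown replicate 3 (adjusted p = 0.12), o2 replicate 2 (0.089) or o2 replicate 3 (0.057), and its ratio of means of 0.070 became 0.034 without knockdown replicate 2 and 0.12 without o2 replicate 1. z1C1_2 missed it without knockdown replicate 3 (adjusted p = 0.085) or o2 replicate 3 (0.073), and its ratio of 0.069 became 0.039 without knockdown replicate 2 and 0.11 without o2 replicate 1. z1C1_5 kept its call without knockdown replicate 2 alone, lost it when any of the other 5 libraries was left out and with a replicate block (adjusted p = 0.071), and its ratio of 0.13 became 0.066 without knockdown replicate 2 and 0.25 without o2 replicate 1.

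More abundant z1C members showed the same split between replicates. z1C1_8 had 10.1, 160 and 150 FPKM in PbfRNAi;o2, against 2425, 623 and 597 FPKM in o2, with no overlap and a log2 fold change of −3.90 ± 1.21 (adjusted p = 0.080). It passed without knockdown replicate 1, at −2.63 (adjusted p = 0.026). z1C1_19 had 0.68, 28.1 and 26.3 FPKM in the knockdown libraries, against 165, 136 and 134 FPKM in o2 (adjusted p = 0.078), and without knockdown replicate 1 it stood at −2.37 (adjusted p = 0.00026).

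**Figure D3:**
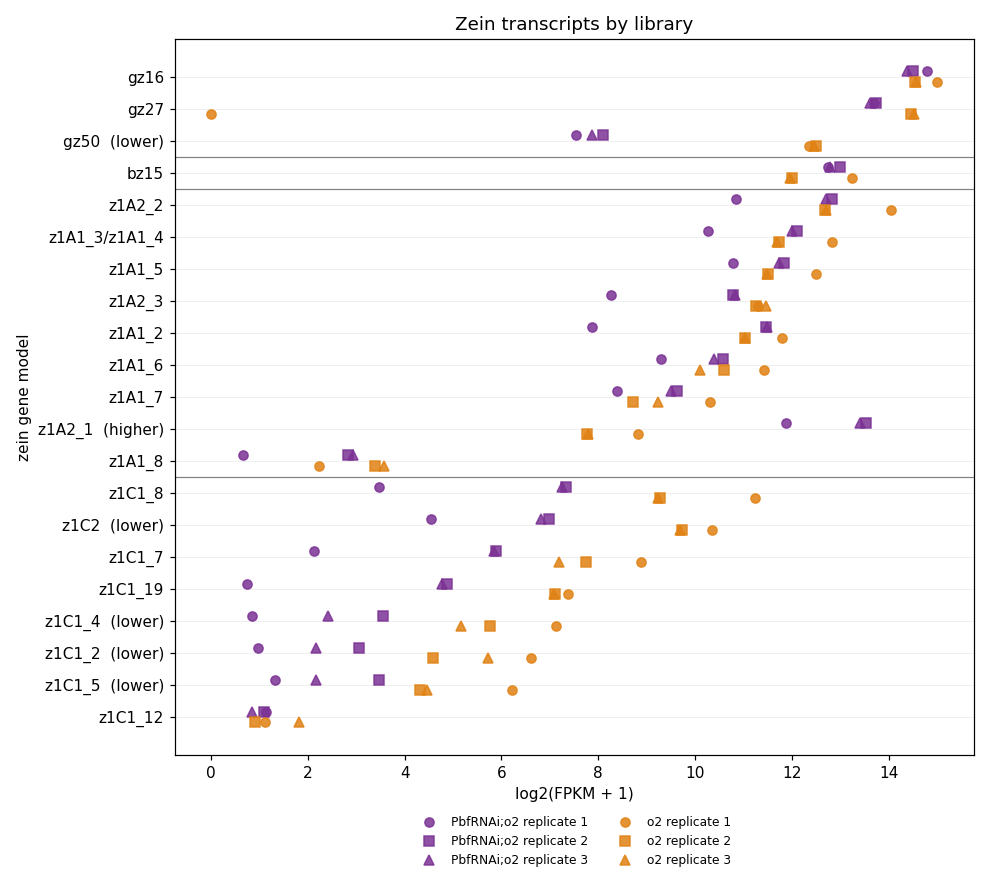
Log2(FPKM + 1) (horizontal axis) of the 21 tested zein models in each PbfRNAi;o2 library (upper points of each model) and each o2 library (lower points), with the call of each model in its label. In PbfRNAi;o2, gz50 and the called z1C models lie further left, at lower levels, and z1A2_1 lies further right.

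Of 13 endosperm transcription factor models, 10 were tested and 2 were lower, pbf1 and ohp2, a share close to the 19.3% called over all genes tested. ohp2, which encodes an O2 heterodimerizing protein, had 4.97, 4.06 and 3.68 FPKM in PbfRNAi;o2, against 7.11, 6.86 and 6.42 FPKM in o2 (−0.58 ± 0.14, adjusted p = 0.022), and missed the threshold when any of the libraries of replicates 2 and 3 was left out (adjusted p = 0.074 to 0.11). Its relative ohp1 was not tested: it was listed at 0, 10.9 and 10.6 FPKM in the knockdown libraries, against 0, 0.03 and 0.02 FPKM in o2. The libraries of PbfRNAi read 2.97, 9.72 and 9.43 FPKM for ohp1, and those of WT were at 0, so ohp1 was read in 5 of the 6 knockdown libraries of the series. fl3, a PLATZ-family regulator of RNA polymerase III genes, had 6992, 5133 and 4497 FPKM in PbfRNAi;o2, against 1182, 4614 and 4156 FPKM in o2 (0.94 ± 0.51, adjusted p = 0.25). Of 7 Dof factors, 4 were tested and pbf1 was the 1 that passed.

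Chaperones of the endoplasmic reticulum, where zeins fold and assemble, were called higher in 6 of 18 and lower in none, against 13.0% higher and 6.3% lower over all genes tested. At an unadjusted p under 0.05, 10 were higher and none lower, against 3542 higher and 1987 lower of the 16355 genes tested. The median log2 fold change of the list was 0.37. bip1, encoding the luminal Hsp70 binding protein, had 359, 433 and 437 FPKM in the knockdown libraries, against 200, 136 and 133 FPKM in o2. The groups did not overlap, the means differed 2.62-fold and the log2 fold change was 1.40 ± 0.18 (adjusted p = 0.0016). bip2 had 73.2, 127 and 129 FPKM in PbfRNAi;o2, against 54.2, 30.0 and 29.6 FPKM in o2 (1.52 ± 0.30, adjusted p = 0.013). The list count was 3 when any of knockdown replicates 2 and 3 or o2 replicates 2 and 3 was left out, and bip2 missed the threshold in each of those 4 cases (adjusted p = 0.055 to 0.059).

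Protein disulfide isomerases, which form disulfide bonds in secreted proteins, included the largest rise of the list. PDIL1-2 had 20.9, 38.1 and 38.0 FPKM in the knockdown libraries, against 2.96, 5.10 and 5.14 FPKM in o2, a 7.34-fold difference in means (log2 fold change 2.60 ± 0.27, limma adjusted p = 0.0006). PDIL2-3 had 104, 104 and 105 FPKM in PbfRNAi;o2, against 72.4, 37.8 and 36.2 FPKM in o2 (1.15 ± 0.25, adjusted p = 0.016). PDIL2-3 missed the threshold without knockdown replicate 2 (adjusted p = 0.061) or 3 (0.066), or without o2 replicate 2 (0.067) or 3 (0.059). The calreticulin gene crt2 had 90.1, 84.5 and 81.4 FPKM in the knockdown libraries, against 59.3, 40.9 and 42.7 FPKM in o2 (0.85 ± 0.15, adjusted p = 0.0078). In all of these genes the knockdown libraries were above the o2 libraries.

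Other isomerases behaved differently. The most abundant, PDIL1-1, had 1019, 1320 and 1431 FPKM in PbfRNAi;o2, against 755, 883 and 925 FPKM in o2, with no overlap but an adjusted p of 0.058 (0.55 ± 0.17), and it passed with a replicate block (adjusted p = 0.026) and without knockdown replicate 1 (0.013). The PDIL5-1 model GRMZM2G443655 was split within the knockdown, with 61.5, 0.41 and 0.15 FPKM in PbfRNAi;o2 and 50.2, 54.7 and 55.1 FPKM in o2. knockdown replicate 1 lay with the o2 libraries, so the adjusted p was 0.18, against 1.9e-05 without that library.

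Starch and sucrose enzymes were mostly uncalled. Of 17 tested, pho1, encoding the plastidial starch phosphorylase, was the 1 called higher and none was called lower, with 1 of each at an unadjusted p under 0.05. The 5.88% called in the list was below the 19.3% of all genes tested. pho1 had 610, 620 and 600 FPKM in the knockdown libraries, against 240, 328 and 330 FPKM in o2, a 2.04-fold difference with no overlap (1.04 ± 0.15, adjusted p = 0.0028). The calls of sh2 and bt2, subunits of ADP-glucose pyrophosphorylase, which makes the substrate of starch synthesis, turned on o2 replicate 1. sh2 had 2443, 3002 and 2913 FPKM in PbfRNAi;o2, against 2243, 4014 and 4229 FPKM in o2 (−0.28, adjusted p = 0.50), and bt2 had 1314, 1551 and 1564 FPKM in the knockdown libraries, against 1179, 2717 and 2596 FPKM in o2 (−0.46, adjusted p = 0.35). Without o2 replicate 1 sh2 stood at −0.57 (adjusted p = 0.037) and bt2 at −0.85 (0.0090). The starch branching enzyme gene sbe1 (GRMZM2G088753) stood at −0.59 ± 0.29 (adjusted p = 0.21), and passed with a replicate block (0.018). Without replicate 1 of both genotypes the list count was 4 higher and 10 lower.

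In central carbon metabolism, 2 of 13 tested genes fell and none rose, with 3 lower and 1 higher at an unadjusted p under 0.05. The 15.4% called in the list was below the 19.3% of all genes tested. pdk1, encoding pyruvate, phosphate dikinase, had 121, 97.6 and 100 FPKM in PbfRNAi;o2, against 238, 201 and 199 FPKM in o2 (−0.99 ± 0.13, adjusted p = 0.0018). The genotypes did not overlap. gpc1, encoding cytosolic glyceraldehyde-3-phosphate dehydrogenase, had 98.9, 91.7 and 101 FPKM in the knockdown libraries, against 139, 151 and 145 FPKM in o2 (−0.57 ± 0.10, adjusted p = 0.0064). More abundant genes of similar name were not called. Means in PbfRNAi;o2 and o2 were 1331 and 1122 FPKM for gpc4 (adjusted p = 0.79) and 1002 and 980 FPKM for gpc3 (0.90). They were 236 and 267 FPKM for gpc2 (0.54) and 1178 and 1361 FPKM for the dikinase gene ppdk2 (0.60). sdh1, a sorbitol dehydrogenase gene, had 5611, 4385 and 4198 FPKM in PbfRNAi;o2 and 6474, 6470 and 6061 FPKM in o2 (−0.43 ± 0.17, adjusted p = 0.12, or 0.022 without knockdown replicate 1). Without replicate 1 of both genotypes 3 of the list were higher and 10 lower.

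Amino acid metabolism gave 1 higher gene among 8 tested of 11, or 12.5% called against 19.3% of all genes tested. That gene was below 1 FPKM in every o2 library and entered the test only through the knockdown libraries. The glutamine synthetase model gln1 (GRMZM5G885867) had 2.71, 2.16 and 1.68 FPKM in PbfRNAi;o2, against 0.27, 0.33 and 0.31 FPKM in o2 (1.28 ± 0.15, adjusted p = 0.00097). lkrsdh1, the bifunctional enzyme of lysine breakdown and a classical O2 target, had 7.13, 70.3 and 65.2 FPKM in the knockdown libraries, against 65.3, 35.5 and 33.4 FPKM in o2. The replicates pointed opposite ways: knockdown replicate 1 was the lowest library and o2 replicate 1 the highest o2 library. The fold change of −0.37 ± 0.88 did not pass (limma adjusted p = 0.81). Without replicate 1 of both it was 0.95 (adjusted p = 5.4e-07), a value that rests on the close replicates 2 and 3 alone. Among other reserve proteins none of 3 tested passed, with 1 lower at an unadjusted p under 0.05, and the 11S globulin gene leg1 had 6102, 5169 and 4951 FPKM in PbfRNAi;o2 and 6067, 5802 and 5581 FPKM in o2. Neither of the 2 protein body genes tested, o10 and fl1, was called by limma or reached an unadjusted p under 0.05.

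Ribosomal protein genes were called higher in 8 of 34 and lower in 1, against 13.0% higher and 6.3% lower over all genes tested. At an unadjusted p under 0.05, 17 were higher and 1 lower, against 3542 and 1987 of the 16355 genes tested. The median log2 fold change of the list was 0.31. rpl39 had 155, 168 and 175 FPKM in PbfRNAi;o2, against 101, 105 and 110 FPKM in o2 (0.64 ± 0.10, adjusted p = 0.0043). The 1 lowered gene, rpp2a-4, encoding an acidic protein of the ribosomal stalk, had 174, 167 and 187 FPKM in the knockdown libraries, against 245, 259 and 286 FPKM in o2 (−0.58 ± 0.11, adjusted p = 0.0097), and missed the threshold without knockdown replicate 2 (adjusted p = 0.062) or o2 replicate 3 (0.058). After median-of-ratios scaling the list count was 4 higher and 1 lower, and the higher count was 3 without knockdown replicate 2, 2 without knockdown replicate 3, 2 without o2 replicate 2 and 4 without o2 replicate 3. Without replicate 1 of both genotypes 21 were higher and 4 lower. Of 10 translation factors 1 was higher: eIF4E1, the cap-binding factor, had 75.8, 68.4 and 67.8 FPKM in PbfRNAi;o2, against 53.6, 53.3 and 50.8 FPKM in o2 (0.42 ± 0.10, adjusted p = 0.024). The eIF4E1 call was lost when any of the libraries of replicates 2 and 3 was left out (adjusted p = 0.089 to 0.12).

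Histone and replication genes, whose transcripts are abundant in cells that replicate DNA, were higher in 5 of 12 and lower in none. Over all genes tested 13.0% were higher and 6.3% lower. At an unadjusted p under 0.05, 7 were higher and 0 lower, against 3542 and 1987 of the 16355 genes tested. The median log2 fold change was 0.78. histone2b1 had 290, 313 and 352 FPKM in the knockdown libraries, against 90.6, 163 and 185 FPKM in o2 (1.18 ± 0.25, adjusted p = 0.016). The histone H4 gene h4c7 (GRMZM2G149178) had 75.6, 76.1 and 91.1 FPKM in PbfRNAi;o2, against 15.0, 34.9 and 37.2 FPKM in o2 (1.54 ± 0.32, adjusted p = 0.015). Both were highest in the 3 knockdown libraries and lowest in o2 replicate 1, and both missed the threshold without knockdown replicate 2 (adjusted p = 0.060 each) or 3 (0.072 for histone2b1 and 0.074 for h4c7). MCM7, a subunit of the replicative helicase, had 6.77, 7.37 and 7.66 FPKM in the knockdown libraries, against 1.17, 2.83 and 3.17 FPKM in o2 (1.34 ± 0.24, adjusted p = 0.0080). The rise was not uniform. Another model named h4c7, GRMZM2G084195, averaged 47.8 FPKM in PbfRNAi;o2 and 53.2 FPKM in o2 (0.0033, adjusted p = 0.996). The models named Hist1h3b stood at −0.24 (adjusted p = 0.30) and −0.10 (0.70). Over the list, o2 replicate 1 stood lower than the other o2 libraries by a median of 0.91, and the higher count was 1 without either knockdown replicate 2 or 3, 3 without o2 replicate 2 and 7 without replicate 1 of both genotypes.

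**Figure D4:**
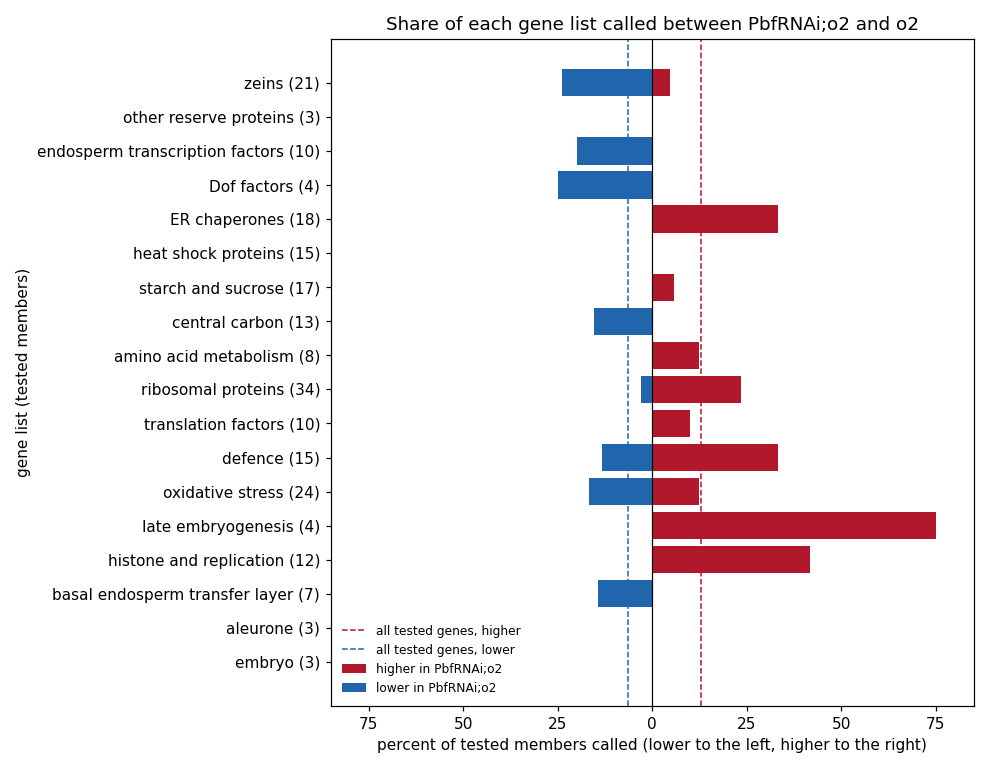
Percent of the tested members of each gene list called higher (bars to the right) and called lower (bars to the left) in PbfRNAi;o2 against o2, for lists with at least 3 tested members, with dashed lines at the percent over all genes tested (13.0 higher and 6.3 lower). Late embryogenesis, histone and replication, ER chaperone and defence lists lie furthest to the right, and zeins furthest to the left among lists of more than 20 members.

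Defence genes were called higher in 5 and lower in 2 of 15 tested among 32 listed, against 13.0% higher and 6.3% lower over all genes tested. Of the higher genes, wip1, chn1 and lox1 were below 1 FPKM in every o2 library and entered the test only through the knockdown libraries. The filter thus favoured a higher count, and the comparison with all genes is not support for a rise of the list. The lipoxygenase gene lox12, of the family that starts oxylipin synthesis, had 13.8, 14.9 and 14.5 FPKM in PbfRNAi;o2, against 1.83, 1.28 and 1.45 FPKM in o2. The groups were tight and far apart, 9.49-fold in means, with a log2 fold change of 2.62 ± 0.13 (adjusted p = 1.9e-05). lox5 had 3.05, 2.53 and 2.48 FPKM in the knockdown libraries, against 1.04, 0.88 and 0.95 FPKM in o2 (0.91 ± 0.13, adjusted p = 0.0024). wip1, a wound-induced proteinase inhibitor gene, had 5.16, 35.1 and 37.9 FPKM in PbfRNAi;o2, against 0.20, 0.56 and 0.78 FPKM in o2 (3.78 ± 0.68, adjusted p = 0.0091). The chitinase gene chn1 had 2.11, 10.9 and 12.6 FPKM in the knockdown libraries, against 0.45, 0.26 and 0.16 FPKM in o2 (2.63 ± 0.53, adjusted p = 0.014). wip1 and chn1 were lowest of the knockdown libraries in replicate 1, and missed the threshold without o2 replicate 2 (adjusted p = 0.058 for wip1 and 0.071 for chn1) or o2 replicate 3 (0.060 for wip1 and 0.084 for chn1). The list count was 2 higher and none lower when any library of replicates 2 and 3 was left out, and 3 higher and 5 lower without replicate 1 of both genotypes.

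A second chitinase gene, chiA, was outside the list and had 8.43, 10.6 and 11.3 FPKM in PbfRNAi;o2, against 0, 0.24 and 0.07 FPKM in o2 (3.33 ± 0.16, adjusted p = 1.7e-05). Genes below 1 FPKM in every o2 library, such as wip1, chn1, lox1, chiA, gln1 and emb5, fell out of the test when a knockdown library was left out. Such genes could be tested only where they were higher in the knockdown libraries, so the direction of their calls was set by the filter. The 2 lowered defence genes were more abundant in o2. hag, encoding the Hageman factor inhibitor of the kernel, had 6849, 4889 and 4425 FPKM in the knockdown libraries, against 9814, 8593 and 9006 FPKM in o2 (−0.79 ± 0.20, adjusted p = 0.033), and kept its call without knockdown replicate 1 but not without any of the other 5 libraries (adjusted p = 0.064 to 0.16). pr10, a pathogenesis-related gene, had 23.3, 6.16 and 8.58 FPKM in PbfRNAi;o2, against 36.5, 77.0 and 71.8 FPKM in o2 (−2.33 ± 0.48, adjusted p = 0.016). pr10 missed the threshold when any library of replicates 2 and 3 was left out (adjusted p = 0.072 to 0.097), and its ratio of means of 0.21 became 0.12 without knockdown replicate 1. Among uncalled members, psei10 had 266, 216 and 187 FPKM in the knockdown libraries, against 392, 285 and 234 FPKM in o2 (−0.43, adjusted p = 0.20), and passed with a replicate block (0.044).

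Genes of oxidative stress were called higher in 3 and lower in 4 of 24 tested among 42 listed, against 13.0% higher and 6.3% lower over all genes tested. apx2, an ascorbate peroxidase gene, had 17.5, 16.3 and 15.5 FPKM in PbfRNAi;o2, against 49.6, 49.1 and 51.7 FPKM in o2, with narrow spreads and a log2 fold change of −1.55 ± 0.10 (adjusted p = 6.5e-05). The glutathione S-transferase gene gst17 had 6.38, 5.16 and 3.92 FPKM in the knockdown libraries, against 10.99, 10.95 and 12.5 FPKM in o2 (−1.04 ± 0.17, adjusted p = 0.0045). Of the same family, gst11 had 0.19, 0.03 and 0 FPKM in PbfRNAi;o2, against 3.09, 4.30 and 5.82 FPKM in o2 (−2.30 ± 0.20, adjusted p = 0.00024), and was listed at 0 in all PbfRNAi and WT libraries. GST3 rose, with 5.65, 9.44 and 9.35 FPKM in the knockdown libraries, against 2.53, 3.16 and 3.08 FPKM in o2 (1.2 ± 0.20, adjusted p = 0.0053), and so did the superoxide dismutase gene sod4 (0.86 ± 0.16, adjusted p = 0.0098, or 0.051 without knockdown replicate 3). The list count was 5 higher and 7 lower without knockdown replicate 1, 2 and 4 without knockdown replicate 2, 1 and 4 without knockdown replicate 3, 3 and 2 without o2 replicate 1, and 2 and 2 without either o2 replicate 2 or 3.

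Late embryogenesis genes, which encode protective proteins of drying seeds, were higher in 3 of 4, against 13.0% higher over all genes tested. Of these, emb5 was below 1 FPKM in every o2 library and entered the test only through the knockdown libraries. At an unadjusted p under 0.05, 4 of 4 were higher, against 3542 of the 16355 genes tested. The dehydrin gene dhn1 had 6.30, 16.5 and 17.6 FPKM in PbfRNAi;o2, against 4.01, 2.32 and 2.93 FPKM in o2 (1.73 ± 0.36, adjusted p = 0.016), and missed the threshold when any library of replicates 2 and 3 was left out (adjusted p = 0.064 to 0.073). lea14a had 2.06, 2.83 and 2.45 FPKM in the knockdown libraries, against 0.93, 1.03 and 0.65 FPKM in o2 (0.88 ± 0.15, adjusted p = 0.0055). emb5 had 1.98, 1.35 and 1.69 FPKM in PbfRNAi;o2, against 0.41, 0.46 and 0.06 FPKM in o2 (1.04 ± 0.17, adjusted p = 0.0047). The genotypes did not overlap in any of these 3 genes. The list count was 1 without knockdown replicate 2 or 3 and 2 without knockdown replicate 1, since emb5 then fell below the level required for testing. No heat shock gene of 15 tested among 16 was called by limma, although 2 were higher at an unadjusted p under 0.05. Their summed level was 4976, 1146 and 1189 FPKM in PbfRNAi;o2 and 2366, 1304 and 1316 FPKM in o2, with replicate 1 high in both. Without knockdown replicate 1 there were 2 lower genes in the list, and without replicate 1 of both genotypes 4 higher and 5 lower.

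Markers of other kernel cells were examined because they move with the part of the seed sampled. The basal endosperm transfer layer, which loads sugars from the mother plant, was summed at 99.0, 300 and 273 FPKM over 7 markers in the knockdown libraries, against 311, 572 and 544 FPKM in o2. The sums did not overlap between the genotypes, and replicate 1 was lowest in both genotypes. betl1 was the 1 of 7 that passed, with 18.1, 46.2 and 48.8 FPKM in PbfRNAi;o2, against 112, 182 and 184 FPKM in o2 (−2.13 ± 0.39, adjusted p = 0.010, or 0.054 without o2 replicate 2 and 0.062 without o2 replicate 3). The 14.3% called in the list was below the 19.3% of all genes tested. With a replicate block 3 of 7 were lower, among them betl10 (−1.16 ± 0.46, adjusted p = 0.0042 against 0.12 without the block). Among 2 tested markers of the embryo-surrounding region, esr6 had 2.03, 2.02 and 2.38 FPKM in the knockdown libraries, against 3.35, 9.93 and 8.40 FPKM in o2 (−1.28 ± 0.32, adjusted p = 0.029), and kept its call only without o2 replicate 1 when single libraries were left out (adjusted p otherwise 0.061 to 0.11).

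None of the 3 aleurone markers and none of the 3 embryo markers tested was called by limma or reached an unadjusted p under 0.05, but replicate 1 bore on this. Without knockdown replicate 1, the aleurone regulators nkd1 (adjusted p = 0.0087) and nkd2 (0.044) and the embryo globulin gene glb1 (0.0064) were higher, and without replicate 1 of both genotypes 2 aleurone markers were higher and 1 lower, and 1 embryo marker was higher. glb1 had 39.8, 147 and 160 FPKM in the knockdown libraries, against 35.3, 58.7 and 60.6 FPKM in o2, so that replicate 1 of the knockdown lay among the o2 libraries. The embryo and aleurone oil-body gene ole1 had 347, 325 and 359 FPKM in PbfRNAi;o2 and 321, 347 and 337 FPKM in o2, with overlap, and the embryo regulator lec1 and the aleurone pigment regulator c1 were at 0 in all 6. The part of transfer-layer tissue in the changes of other lists was not tested.

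Beyond the lists, several named genes rose with tight replicates. sfp5, a sugar-porter family member by name, had 28.0, 31.4 and 31.9 FPKM in PbfRNAi;o2, against 2.75, 2.46 and 2.35 FPKM in o2, a 12.1-fold difference (3.16 ± 0.11, limma adjusted p = 7.7e-06). pal3, by name a phenylalanine ammonia-lyase, the entry enzyme of phenylpropanoid synthesis, had 30.2, 31.4 and 34.2 FPKM in the knockdown libraries, against 6.74, 5.81 and 5.75 FPKM in o2 (2.21 ± 0.11, adjusted p = 2.1e-05). orp1, encoding the beta subunit of tryptophan synthase, had 113, 82.5 and 86.3 FPKM in PbfRNAi;o2, against 31.2, 23.9 and 23.1 FPKM in o2, a 3.61-fold difference (1.81 ± 0.17, adjusted p = 0.00033). No knockdown library overlapped an o2 library in these 3 genes.

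Regulatory and other named genes rose as well. DBP2 had 61.2, 63.3 and 69.6 FPKM in the knockdown libraries, against 7.29, 17.6 and 18.5 FPKM in o2 (2.19 ± 0.31, adjusted p = 0.0032). ARF12, an auxin response factor by name, had 16.3, 15.7 and 14.3 FPKM in PbfRNAi;o2, against 2.39, 3.64 and 3.42 FPKM in o2 (2.0 ± 0.15, adjusted p = 0.00013). dedA had 53.0, 41.4 and 41.4 FPKM in the knockdown libraries, against 10.7, 12.5 and 11.8 FPKM in o2 (1.86 ± 0.13, adjusted p = 1e-04). bap-1a, a transfer-layer antifungal protein gene by name, rose against the transfer-layer markers, with 5.95, 16.6 and 14.6 FPKM in PbfRNAi;o2, against 1.69, 3.12 and 2.85 FPKM in o2 (1.83 ± 0.36, adjusted p = 0.012, or 0.059 without knockdown replicate 3).

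The steepest fall among named genes after gz50 was that of a model named GTPase (GRMZM2G001953). It had 0.48, 0.33 and 0.24 FPKM in the knockdown libraries, against 31.3, 28.1 and 29.7 FPKM in o2 (−4.51 ± 0.13, limma adjusted p = 3.3e-06). Its levels were 1.67, 0.72 and 1.05 FPKM in PbfRNAi libraries, against 25.8, 31.7 and 29.4 FPKM in WT libraries, so it was near 1 FPKM or below 2 FPKM wherever Pbf was knocked down. ZCN11, of the family of the flowering signal FT, had 25.8, 21.7 and 21.5 FPKM in PbfRNAi;o2, against 77.0, 112 and 106 FPKM in o2 (−2.04 ± 0.16, adjusted p = 0.00017). CNX5 had 2.12, 1.80 and 2.13 FPKM in the knockdown libraries, against 10.9, 10.1 and 11.1 FPKM in o2 (−1.96 ± 0.12, adjusted p = 5.2e-05). AMA1 stood at 3.59, 3.55 and 3.08 FPKM in PbfRNAi;o2, against 16.1, 15.0 and 13.9 FPKM in o2 (−1.86 ± 0.12, adjusted p = 6.4e-05).

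Weaker falls included TA1, with 909, 557 and 597 FPKM in the knockdown libraries, against 1217, 1837 and 1784 FPKM in o2 (−1.24 ± 0.24, adjusted p = 0.010, or 0.050 without knockdown replicate 3), where replicate 1 of the 2 genotypes lay closest. TCP7, a TCP-family transcription factor by name, had 5.08, 2.83 and 2.35 FPKM in PbfRNAi;o2, against 11.7, 8.57 and 7.80 FPKM in o2 (−1.26 ± 0.25, adjusted p = 0.011).

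Models that the reference does not name showed the widest contrasts. GRMZM2G046382 had 464, 301 and 335 FPKM in the knockdown libraries, against 1.31, 1.69 and 0.62 FPKM in o2 (7.39 ± 0.23, adjusted p = 4.3e-06), and 241, 215 and 257 FPKM in PbfRNAi, against 2.27, 0.53 and 0.58 FPKM in WT. GRMZM2G094639 had 136, 307 and 326 FPKM in PbfRNAi;o2, against 1.77, 4.88 and 5.71 FPKM in o2 (5.65 ± 0.44, adjusted p = 0.00023). Both were separated by more than an order of magnitude in each replicate. GRMZM2G092758 had 85.7, 111 and 105 FPKM and GRMZM2G152523 had 22.8, 37.3 and 40.7 FPKM in PbfRNAi;o2, and both were listed at 0 in all o2 libraries. The reverse held for GRMZM2G437040, listed at 0 in all PbfRNAi;o2 libraries, against 34.2, 60.3 and 59.2 FPKM in o2, and for GRMZM2G408834, also at 0 in all PbfRNAi;o2 libraries, against 37.3, 34.4 and 31.7 FPKM in o2. All 4 passed the test, with adjusted p between 9.1e-07 and 1.2e-05. GRMZM2G031572 had 19.1, 0.05 and 0.08 FPKM in the knockdown libraries, against 87.1, 111 and 113 FPKM in o2 (−5.20 ± 1.19, adjusted p = 0.034), and its call was lost when any library of replicates 2 and 3 was left out (adjusted p = 0.12 to 0.16), while without knockdown replicate 1 its ratio of means of 0.062 became 0.0006.

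Whether the change between knockdown and control libraries differed with and without Opaque2 was tested by an interaction contrast over all 12 libraries. It called 9.32% of 17058 genes, 654 (3.83%) with a more positive and 936 (5.49%) with a more negative change in the o2 background. After median-of-ratios scaling 9.71% were called, 891 (5.22%) and 765 (4.48%). Of the 3161 genes called in the o2 background, 2513 (79.5%) had the same sign in the WT background, against 63.8% of all genes tested, and 1309 were called there in the same direction (41.4% of the o2-background calls and 35.5% of the WT-background calls). Over all 16355 genes tested, 3687 were called in the WT background in either direction. A called difference between backgrounds was found for 819 of the 3161, against 1441 of the 16355. The 3161 were chosen on libraries that also enter the interaction contrast, which raises their share in advance. The 2 comparisons share no library.

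Among zeins the difference was called negative for 3 models, gz50, z1C1_4 and z1C1_2, and positive for 3, z1C1_12, z1C1_11 and z1C1_1. The models with positive values were near or below 1 FPKM in both PbfRNAi;o2 and o2 and had little room to fall there. A fall in PbfRNAi against WT then gives a positive difference by itself, so these values do not show an opposite response. gz50 stood at 230 FPKM in PbfRNAi;o2 and 5571 FPKM in o2 on average, and at 1290 FPKM in PbfRNAi and 6194 FPKM in WT, a difference of −2.15 ± 0.54 on the log2 scale (interaction adjusted p = 0.028). That call was lost without PbfRNAi;o2 replicate 3, o2 replicate 2 or 3, PbfRNAi replicate 3, or WT replicate 1 or 3 (adjusted p = 0.053 to 0.069). z1C1_12 was near 1 FPKM in PbfRNAi;o2 and o2 (1.04 ± 0.21 and 1.52 ± 0.89 FPKM, SD, n = 3 each), while it had 5.7, 5.4 and 5.3 FPKM in PbfRNAi, against 1075, 2644 and 2062 FPKM in WT, which gave an interaction of 7.86 (adjusted p = 3.9e-07). z1C1_11 and z1C1_1 were below 1 FPKM in all PbfRNAi;o2 and o2 libraries, and averaged 13.0 and 21.7 FPKM in PbfRNAi, against 80.5 and 81.7 FPKM in WT. The negative differences of z1C1_4 (adjusted p = 0.031) and z1C1_2 (0.036) were lost with a replicate block (0.056 for z1C1_4 and 0.069 for z1C1_2). The bip2 rise was smaller in the o2 background by 1.63 ± 0.44 (adjusted p = 0.038), with means of 110 FPKM in PbfRNAi;o2 and 37.9 FPKM in o2 on one side and 167 FPKM in PbfRNAi and 17.0 FPKM in WT on the other. The bip2 call was lost after scaling (adjusted p = 0.080), with a replicate block (0.051) and without any of 10 of the 12 libraries (0.053 to 0.091).

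Some other genes also differed between the backgrounds, and of those given here TCP7 moved in opposite directions. TCP7 had 17.4, 16.9 and 19.1 FPKM in PbfRNAi libraries, against 4.40, 2.06 and 1.91 FPKM in WT libraries, a rise of 2.37 on the log2 scale, where it fell by 1.26 in the o2 background (interaction −3.63, adjusted p = 5.5e-05). pdk1 averaged 569 FPKM in PbfRNAi and 523 FPKM in WT, with no fall in that background (interaction −1.11 ± 0.24, adjusted p = 0.013). lox12 averaged 2.87 FPKM in PbfRNAi and 1.84 FPKM in WT, far less of a rise than in the o2 background (interaction 2.19 ± 0.27, adjusted p = 0.00027). The same held for sfp5, at 14.0 FPKM in PbfRNAi and 8.68 FPKM in WT (interaction 2.49 ± 0.34, adjusted p = 0.00061).

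**Figure D5:**
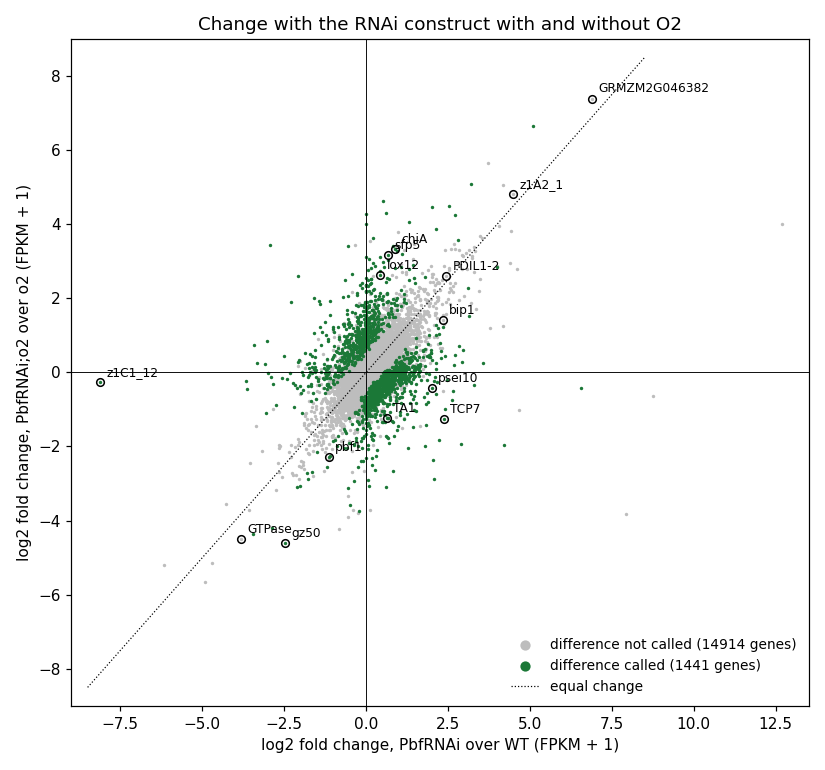
Log2 fold change of PbfRNAi;o2 over o2 (vertical axis) against that of PbfRNAi over WT (horizontal axis) for 16355 genes, each point 1 gene, with the 1441 genes whose difference between backgrounds was called in green and a dotted line at equal change. z1A2_1 and GTPase lie near the dotted line, and gz50 lies below it.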

How the data were processed

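Endosperm RNA of 4 genotypes with 3 libraries each was sequenced as 125-nt paired reads, per the labels. The deposited table holds FPKM values per gene model of the maize B73 RefGen v3 build. FastQC, TopHat, Bowtie2 and Cufflinks are named in the submitters' processing notes, with versions not given in the sources used here. Strand handling and the treatment of reads shared by near-identical copies are also not given. Low values did not fall on steps of whole reads, so depth and counting error are unknown and no count test was run. Fold changes were computed on log2(FPKM + 1) of the deposited values.

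Genes with an FPKM of 1 or more in at least 3 of the 6 PbfRNAi;o2 and o2 libraries were fitted with limma 3.58.1 in R 4.3.3 (empirical Bayes with trend and robust options, no covariate, two-sided). P-values were adjusted by Benjamini-Hochberg over all genes tested, with a threshold of 0.05. A gene is called higher, lower, raised or lowered where it passed. The fit was repeated on median-of-ratios scaled values. The interaction contrast used all 12 libraries. The code was tested on simulated data before use. Alternatives were another pseudocount (0.1 or 5), other filters, other scaling, a replicate block and leaving out each library. Leaving out both replicate 1 libraries after scaling was chosen after seeing the data.

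Same-numbered libraries of the 2 genotypes deviated together, with correlations of 0.218, 0.172 and 0.184 of their deviations from the group means for replicates 1, 2 and 3. Differently numbered pairs of replicates 2 and 3 were nearly as high (0.166 and 0.148), so the numbers mainly set replicate 1 apart. Same-numbered libraries were treated as paired in the blocked fit.

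Names came from a RefSeq gene table matched by locus tag: 18905 models matched and 2658 had a name, of which 11988 and 1658 were among the genes tested. The members and gene lists were chosen with earlier results of these data known. Named genes are pbf1 and o2, the 12 largest named rises and falls with a mean of at least 10 FPKM and no overlap of libraries, 4 models without a name each way, the most abundant members of each list, and the largest interactions. Some genes that this rule allows are not described, chiefly models matching more than 1 reference gene. chiA is among the largest rises. Promoter motifs and sequences were not analysed here. Versions of other tools were Python 3.11.15, numpy 2.4.6, pandas 2.3.3 and matplotlib 3.10.9.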

Additional observations from a re-analysis of the deposited data

Results flagged for a closer look

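The genes below are those described above, or those with the largest interactions, for which the change between knockdown and control libraries differed between the o2 and WT backgrounds. Each value is the change in the o2 background minus that in the WT background on the log2(FPKM + 1) scale, by limma's interaction contrast at an adjusted p under 0.05.

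Among regulators the values were −1.13 for pbf1 and −3.63 for TCP7. Among zeins they were −2.15 for gz50, −3.53 for z1C1_4, −3.06 for z1C1_2, 7.86 for z1C1_12, 2.5 for z1C1_11 and 1.74 for z1C1_1. The last pair were below 1 FPKM in all PbfRNAi;o2 and o2 libraries, and z1C1_12 averaged 1.04 FPKM in PbfRNAi;o2 and 1.5 FPKM in o2. The positive values of these models thus rest on the change in the WT background. The 2 z1C models with negative values averaged 5.30 and 3.94 FPKM in PbfRNAi;o2, against 75.5 and 56.9 FPKM in o2, and 2077 and 1711 FPKM in PbfRNAi, against 2519 and 2565 FPKM in WT. Both differences missed the threshold with a replicate block (adjusted p = 0.056 for z1C1_4 and 0.069 for z1C1_2) and when any of 8 of the 12 libraries was left out (0.056 to 0.078 for z1C1_4 and 0.060 to 0.084 for z1C1_2). The value of z1C1_2 also missed it after scaling (0.053), and that of z1C1_4 with a pseudocount of 0.1 (0.053).

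For chaperones the values were −1.63 for bip2, −0.989 for PDIL1-1, and 2.37 and 1.0 for 2 models named PDIL1-4. bip2 missed the threshold after scaling (adjusted p = 0.080), with a replicate block (0.051) and without any of 10 libraries (0.053 to 0.091), and PDIL1-1 after scaling (0.084) and without any of 9 libraries (0.061 to 0.13). The PDIL1-4 models averaged 7.0 and 24.9 FPKM in PbfRNAi;o2, against 5.21 and 22.0 FPKM in o2, and 0.62 and 7.72 FPKM in PbfRNAi, against 5.67 and 14.6 FPKM in WT.

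In metabolism and reserve proteins the values were −1.54 for sbe1, −1.11 for pdk1, −1.14 for sdh1, −0.988 for leg1 and 2.49 for sfp5. leg1 averaged 5407 FPKM in PbfRNAi;o2, against 5817 FPKM in o2, and 3381 FPKM in PbfRNAi, against 1828 FPKM in WT. sbe1 missed the threshold after scaling (adjusted p = 0.059) and without any of 7 libraries (0.055 to 0.088), and sdh1 without any of 5 libraries (0.053 to 0.062).

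Among defence, stress and late embryogenesis genes the values were 2.44 for chiA, 2.19 for lox12, −2.43 for psei10, 1.16 for pal3, 2.15 for bap-1a, −2.30 for gst11, 1.41 for lea14a and 1.04 for emb5. psei10 averaged 223 FPKM in PbfRNAi;o2, against 304 FPKM in o2, and 101 FPKM in PbfRNAi, against 27.5 FPKM in WT. bap-1a averaged 12.4 FPKM in PbfRNAi;o2, against 2.56 FPKM in o2, and 0.58 FPKM in PbfRNAi, against 0.98 FPKM in WT. emb5 missed the threshold with a pseudocount of 0.1 (adjusted p = 0.064).

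Other values were −0.888 for rpp2a-4, 1.06 for ARF12, −1.36 for ZCN11, −1.86 for TA1 and −1.54 for AMA1. ARF12 missed the threshold without PbfRNAi replicate 2 (adjusted p = 0.052). ZCN11, close to it from the start (0.050), missed it after scaling (0.070), with a pseudocount of 0.1 (0.065) and without any of 10 libraries (0.051 to 0.12). TA1 averaged 688 FPKM in PbfRNAi;o2, against 1613 FPKM in o2, and 704 FPKM in PbfRNAi, against 453 FPKM in WT. Values of 1.57 for GRMZM2G092758 and 1.86 for GRMZM2G152523 rest on genes listed at 0 in all o2 and WT libraries, so that they depend on the pseudocount.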

How the results depend on the processing

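Counts of genes higher and lower in PbfRNAi;o2 were 2030 and 1616 after median-of-ratios scaling, 2026 and 1617 after scaling by genes outside the 100 most abundant, 1269 and 533 with a mean of at least 5 FPKM, and 3900 and 4515 without both replicate 1 libraries. Leaving out single libraries gave 867 to 2234 higher and 322 to 1875 lower, and after scaling 824 to 2499 and 557 to 2235. The scaled counts without both replicate 1 libraries were 4306 and 3905. Positive and negative differences between backgrounds numbered 991 and 1522 with a replicate block, and 407 to 697 and 565 to 1437 without single libraries. pbf1 lay between −2.41 and −2.18 without single libraries, and its second model between −0.38 and −0.26, with −0.38 under both scalings and −0.42 without both replicate 1 libraries.

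Sign changes occurred for lkrsdh1 (0.95 without both replicate 1 libraries, −0.91 to 0.65 without single libraries), gz16 (0.0058 without o2 replicate 1, and down to −0.27 without other libraries), gz27 (−0.82 without o2 replicate 1 and without both, and up to 6.45 with that library at 0), z1A2_2 (0.080 without both) and z1C1_12 (0.014 without o2 replicate 3, and down to −0.45 without other libraries). The cause was not tested. Of 1617 values for 112 changes of single genes, 1426 kept their direction and side of the threshold. Pairing by replicate number lost the z1C1_5 call and 3 differences between backgrounds, those of bip2, z1C1_4 and z1C1_2, brought PDIL1-1, sbe1, psei10 and betl10 past the threshold, and changed no other call against o2 of a gene named above. It also brought the differences between backgrounds of wip1 (adjusted p = 0.013), MCM7 (0.0075), CNX5 (0.041), glb1 (0.047) and GRMZM2G094639 (0.0018) past the threshold.

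Depth is unknown, so zeros cannot be separated from failed estimates, and levels of near-identical zein copies are uncertain. Replicates 2 and 3 were far closer to each other than to replicate 1, and whether they are equally independent is not given. FPKM shares a total, so a shift in abundant zeins moves all other genes.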

Other observations

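Presence and absence separated some models. In all 3 PbfRNAi;o2 libraries 35 models had at least 5 FPKM while all 3 o2 libraries were below 0.5 FPKM, and 14 showed the reverse. Of the 35, 22 had at least 1 FPKM in all PbfRNAi libraries and below 0.5 FPKM in all WT libraries, and of the 14, 7 showed the reverse there likewise. Within genotypes, 10 models set PbfRNAi;o2 replicate 1 apart from its other replicates by the same limits, and 0 to 4 set any other library apart.

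Genes with large changes lay near each other in the annotation's gene order. Of 142 placed genes with a log2 fold change of at least 2 in either direction, 40 (28.2%) had another such gene within 5 genes, against 10.4% of all 11636 placed genes tested. With zeins left out, 37 of 136 (27.2%) did, against 10.04%. This is a description with no test, and the genotype of the regions around the construct and the o2 allele was not analysed here.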
